A study of Mus musculus with 60 samples.

Results

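Skeletal muscle of old C57BL/6 mice that carry no reprogramming cassette was compared with and without doxycycline, in 4 of the 60 libraries of the series. The libraries were chosen by their labels: 2 from doxycycline-treated and 2 from untreated C57BL/6 mice (B6 here), all male. Treated mice had 1 mg/ml doxycycline in their drinking water in weekly cycles, 2 days on and 5 off. Per the series text this lasted 5 months, starting at 20 months of age, and ended at 25 months, while the untreated mice were 26 months old. The sample labels give 25 months for both arms, so doxycycline and a possible difference in age cannot be told apart. The treatment field of the B6 labels instead gives 10 months and describes induction of the factors, although the strain they name has no cassette to induce. These mice are the control for doxycycline itself. The series' other muscle libraries, used here to estimate the spread between samples and for 1 comparison, came from 4F mice of 22 months, which carry 1 copy each of a doxycycline-inducible Oct4, Sox2, Klf4 and Myc cassette and of the rtTA transactivator, on a C57BL/6 background. Those had 3 libraries from mice treated for 10 months from 12 months of age and 3 from untreated mice, with 1 male and 2 females in each arm. Which muscle was taken, and at what time of day, is not given in the sources used here. Nor do the labels say that libraries of an arm come from separate animals, so p-values measure the spread between these samples, which may be technical.

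Doxycycline is a tetracycline, and tetracyclines bind the small subunit of bacterial ribosomes and can also hinder the related ribosomes of mitochondria, which translate the few respiratory chain subunits encoded in mitochondrial DNA. The other subunits of the respiratory chain are encoded in the nucleus, and both sets are needed to build complexes I, III and IV and the ATP synthase; complex II is wholly nuclear. Muscle fibres also run a circadian clock, in which ARNTL (BMAL1) pairs with CLOCK or NPAS2 at E-boxes to drive the Per, Cry, Nr1d and Dbp genes, whose products in turn shut the activators off and set the daily peak of the output genes.

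The 4 libraries held 28596958 and 30597197 counts in doxycycline-treated muscle and 26191386 and 29935327 in untreated muscle. Levels below are in CPM, counts scaled to a common library size by TMM. Fold changes are log2 values, doxycycline minus untreated, from edgeR's quasi-likelihood fit to all 10 muscle libraries. The standard error (SE) of each was derived from that fit, as the absolute fold change divided by the square root of its F statistic. The 10 markers of muscle fibres were high throughout, and summed to 144613.8 and 145063.4 CPM with doxycycline against 155141.8 and 132646.7 CPM without it. Of 16427 genes tested, edgeR called 0 at an adjusted p under 0.05 (0%), and the smallest adjusted p was 0.762. DESeq2 on the same design called 14 (0.0852%). At an unadjusted p under 0.05, edgeR placed 458 genes higher with doxycycline (2.79%) and 557 lower (3.39%). The arms did not overlap in 3721 genes that were higher with doxycycline (22.7%) and in 3656 that were lower (22.3%), and 48.7% of all fold changes were above 0, with a median of -0.01. These shares are the background against which the gene groups below are to be read.

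Untreated replicate 2 stood apart from the other B6 libraries. The median absolute log2 difference per gene was 0.17 between the treated libraries, 0.31 between the untreated libraries, and 0.22 between treated replicate 1 and untreated replicate 1. The 7 neutrophil markers summed to 17.5 and 4.96 CPM with doxycycline against 2.36 and 352.3 CPM without it. The 7 erythroid markers summed to 184 and 231.3 CPM against 206.1 and 1174.8 CPM, and the 8 hepatocyte markers to 0.279 and 10.1 CPM against 6.22 and 62 CPM. The 7 tendon markers summed to 124.9 and 138.1 CPM against 139 and 32.5 CPM. In each of these lists untreated replicate 2 was the library farthest from the rest, high for the first 3 and low for tendon. Treated replicate 2 in turn carried lung and skin transcripts: the 6 lung epithelium markers summed to 0.383 and 16 CPM with doxycycline, against 0.236 and 0.806 CPM without it, and the 8 keratinocyte and hair markers to 3.34 and 11.8 CPM against 2.24 and 1.7 CPM. Of the other marker lists, B and plasma cell genes summed to 572.2 and 228.3 CPM with doxycycline against 162.3 and 408.6 CPM without it, adipocyte genes to 1099.5 and 988.7 CPM against 788.7 and 1555.9 CPM, and macrophage genes to 80 and 48.1 CPM against 28.8 and 92 CPM. Satellite cell genes were lower in both treated libraries, at 36.3 and 44.2 CPM against 49.8 and 68.1 CPM. In bulk tissue, fewer cells of a type and less RNA per cell cannot be told apart. Leaving out untreated replicate 2 turned some values round or moved them by over 1.5 times. This is said beside many of the gene groups and main genes, but not all of them. The part of these marker transcripts in them was not tested beyond that.

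The clock activators were lower with doxycycline. Arntl, whose product is the core activator, had 8.39 and 6.82 CPM in treated muscle, against 16.1 and 17.6 CPM in untreated muscle. Both treated libraries lay below both untreated ones, with a log2 fold change of -1.15 ± 0.24 (SE), an unadjusted p of 0.00146 and an edgeR adjusted p of 0.762. Clock, its partner, had 26.8 and 24.6 CPM with doxycycline and 39.8 and 40 CPM without it, again with no overlap, and a log2 fold change of -0.64 ± 0.14 (unadjusted p = 0.00212). DESeq2 called both genes, with adjusted p of 0.0496 for Arntl and 0.0398 for Clock. Leaving out any B6 library kept the fold change of Arntl between -1.30 and -1.01 and that of Clock between -0.69 and -0.57, so neither rested on the untreated library that stood apart. Npas2, the alternative partner of ARNTL, was scarce, at 0.592 and 0.229 CPM with doxycycline against 0.748 and 0.744 CPM without it (log2 fold change -0.86 ± 0.60, and -0.33 without treated replicate 2). Rora, a nuclear receptor that activates Arntl, had 89.6 and 73.8 CPM with doxycycline against 129.6 and 197.7 CPM without it, a fold change of -1.002 ± 0.54 on the log2 scale, and of -0.67 without untreated replicate 2. Rorb, a related receptor, was near 0 in every library, between 0.062 and 0.279 CPM. Of the 6 activators, 5 were lower with doxycycline, 4 of them with arms that did not overlap, where the background was 22.3%. Their median log2 fold change was -0.79, against -0.01 over all genes.

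**Figure D1:**
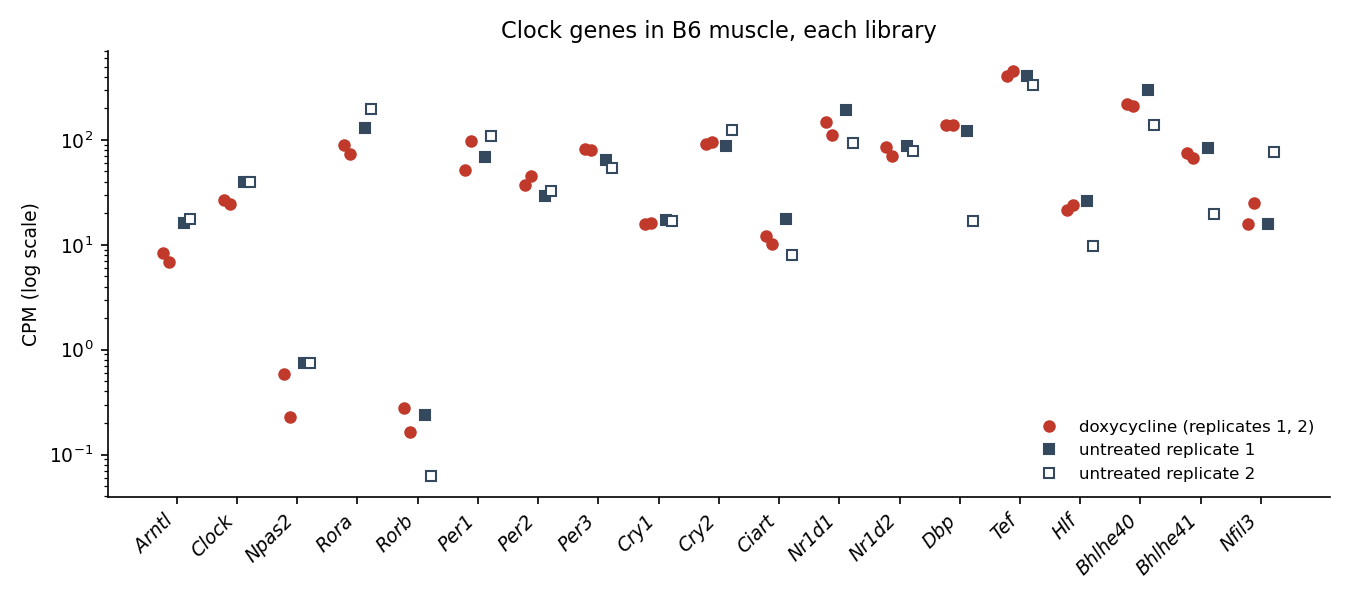
CPM (log scale) of clock genes in each B6 muscle library, with the doxycycline libraries as circles left of the untreated libraries as squares. Arntl and Clock were lower in both treated libraries, while open squares show that untreated replicate 2 alone was low for Dbp (16.9 CPM) and high for Nfil3 (76.4 CPM).

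The 14 repressors and outputs of the clock, listed as E-box genes from what is known of the clock and not from sequence, were less even. Per3, a member of the Period family, had 81.1 and 80.8 CPM with doxycycline against 64 and 53.8 CPM without it, with no overlap and a log2 fold change of 0.46 ± 0.18 (unadjusted p = 0.0333, edgeR adjusted p = 0.762). It was the only member of this list with an unadjusted p under 0.05. Per2, which represses the activators, had 37.2 and 45.1 CPM against 29.1 and 32.8 CPM, with a fold change of 0.41 ± 0.31 (log2). Dbp, a PAR-bZIP factor that passes the rhythm to output genes, had 138.8 and 138.1 CPM with doxycycline and 121.3 and 16.9 CPM without it. Its log2 fold change was 1.00 ± 0.95, and 0.19 without untreated replicate 2, so most of that value came from 1 library. Its relative Tef had 410.1 and 453.1 CPM against 406.2 and 333.4 CPM (0.22 ± 0.25, log2, and 0.09 without untreated replicate 2). Cry1, the cryptochrome repressor, was close in all libraries, at 15.8 and 16.3 CPM with doxycycline against 17.2 and 16.8 CPM without it. Nr1d1 (REV-ERBα), which represses Arntl, spread within both arms, at 149.6 and 110.4 CPM with doxycycline and 191.8 and 93.6 CPM without. Nfil3, a repressor of D-box genes, had 15.9 and 24.9 CPM against 15.9 and 76.4 CPM, and the fold change of -1.18 ± 0.74 (log2) was 0.36 without untreated replicate 2. The other members, Per1, Cry2, Ciart, Nr1d2, Hlf, Bhlhe40 and Bhlhe41, had overlapping arms and log2 fold changes between -0.26 and 0.45. In all, 6 of 14 members were higher with doxycycline, 4 of them without overlap, near the background of 22.7%. The median was -0.06, or 0.43 without untreated replicate 1 and -0.0036 without untreated replicate 2.

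Promoter sequences are shown for Arntl and Per3, the activator and the gene of the repressor and output list with the smallest p, because they hold elements through which the receptor and D-box loops of the clock are known to act. Upper case marks the searched letters on either strand, and all promoter windows are from RefSeq on GRCm38.p6, 250 bases before to 50 after a transcript start. In the Arntl window at chr7:113207529-113207558 (plus strand), the core TAGGTCA of the element bound by ROR and REV-ERB receptors begins 30 bases after an annotated start. In Per3, upstream bases at chr4:151044666-151044915 (minus strand) held 2 copies of TTATGTAA, a D-box, the element that DBP, TEF, HLF and NFIL3 bind, beginning 205 and 158 bases before the start.
Arntl: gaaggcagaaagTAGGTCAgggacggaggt
Per3: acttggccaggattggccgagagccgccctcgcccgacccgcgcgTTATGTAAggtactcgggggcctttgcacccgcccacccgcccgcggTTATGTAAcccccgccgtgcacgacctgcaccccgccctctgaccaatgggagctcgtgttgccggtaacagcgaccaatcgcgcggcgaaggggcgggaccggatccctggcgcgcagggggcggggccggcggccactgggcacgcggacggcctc
Of 27025 genes with a promoter window, 2.97% held TAGGTCA, 1.11% held TTATGTAA and 8.09% held the E-box CACGTG. Among the 17 of 20 clock genes matched to a window, TAGGTCA was found in Arntl and Nfil3, TTATGTAA in Per3, and CACGTG in Bhlhe41, Ciart, Cry1, Per1 and Tef. The matches describe letters in these windows and were not tested as sites.

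Clock genes were then set beside the other 5 tissues of the B6 mice, each fitted in the same way to its own libraries; the labels do not say which libraries share a mouse, so tissues may not be independent. Arntl was lower with doxycycline, with no overlap, in muscle (-1.15 ± 0.24, log2), kidney (-1.36 ± 0.30), liver (-2.21 ± 0.79) and skin (-1.18 ± 0.40), whereas the arms overlapped in lung (-0.44 ± 0.51) and spleen (0.38 ± 0.38). In kidney the levels of Arntl were 2.4 and 2.13 CPM with doxycycline and 5.64 and 5.97 CPM without it. In liver they were 1.97 and 0.966 CPM against 3.03 and 10.5 CPM, and in skin 9.14 and 8.09 CPM against 13.7 and 25.3 CPM. In both liver and skin, 1 untreated library lay well above the other, so the size of the Arntl fold change leaned on it. Per3 was above 0 in every tissue, from 0.46 ± 0.28 in kidney and 0.46 ± 0.18 in muscle to 1.59 ± 1.00 in liver. In liver Per3 had 119.9 and 102.4 CPM with doxycycline against 61.6 and 12.6 CPM without it. Dbp had 255.9 and 206.7 CPM against 173.9 and 11.6 CPM in liver, 131.7 and 121.8 CPM against 111.7 and 47 CPM in skin, and 47.2 and 47.2 CPM against 29.1 and 11.5 CPM in spleen. In each of these, as in muscle, 1 untreated library lay far below the other, so the size of these fold changes leaned on it. Clock itself was lower without overlap in muscle (-0.64 ± 0.14) and liver (-1.03 ± 0.27), but not in kidney (0.06 ± 0.19), skin (-0.14 ± 0.30), lung (-0.10 ± 0.27) or spleen (0.33 ± 0.27). No clock gene was called by edgeR in any of these tissues, and differences between tissues were not tested. In 4F muscle, Arntl had 13.1, 10.3 and 12.5 CPM with doxycycline and 18, 20.1 and 13.7 CPM without, likewise not overlapping (-0.51 ± 0.20, log2). The share of all genes whose arms did not overlap is not given here for the other tissues or for 4F muscle. In B6 muscle it was 22.3% for genes lower with doxycycline, so a lack of overlap alone is common. The B6 effect on Arntl minus the 4F effect was -0.64 ± 0.31, with an unadjusted p of 0.0728 and an edgeR adjusted p of 0.999.

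**Figure D2:**
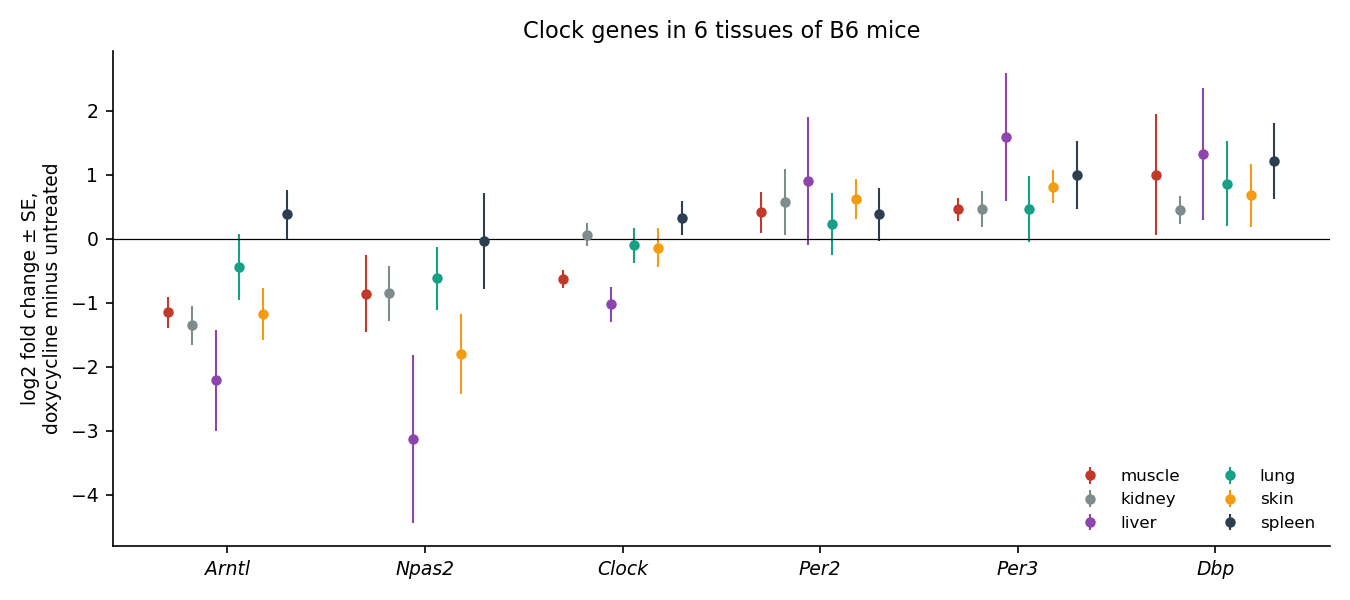
Log2 fold change, doxycycline minus untreated, of 6 clock genes in 6 tissues of B6 mice, as points with SE bars derived from edgeR's fit of each tissue. Arntl lay below 0 in muscle, kidney, liver, lung and skin and above 0 in spleen, while Per2, Per3 and Dbp lay above 0 in all 6 tissues, with wide bars for Dbp in muscle and liver, where 1 untreated library was low.

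Nuclear genes for the respiratory chain and ATP synthase were higher with doxycycline almost throughout. Of 77 listed, 75 passed the filter on low counts, and all 75 of these had a log2 fold change above 0, between 0.15 and 1.28, with a median of 0.77 against -0.01 over all genes. In 70 of them both treated libraries exceeded both untreated ones, where the background was 22.7%, and 35 had an unadjusted p under 0.05, where it was 2.79%; edgeR called none, and the smallest adjusted p was 0.762. The 2 that did not pass, Atp5g2 and Atp5l, had at most 11 counts in any of these libraries. Per library, the median of the 75 genes lay 0.55 and 0.63 above the mean of the 10 muscle libraries (log2) in treated B6 muscle and at 0.04 and -0.51 in untreated B6 muscle. Without untreated replicate 2, 72 of the 75 stayed above 0 with a median of 0.52, and without untreated replicate 1 all 75 did, with a median of 1.05.

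In complex I, which takes electrons from NADH, all 37 genes were above 0 with a median of 0.79, and 19 had an unadjusted p under 0.05. Ndufs6, an accessory subunit of the complex, had 100.8 and 110.4 CPM with doxycycline against 47.1 and 39.5 CPM without it, and the largest log2 fold change of the list at 1.28 ± 0.35 (unadjusted p = 0.00625). Both treated libraries lay above both untreated ones. Ndufb11, a membrane-arm subunit, had 39.5 and 46.3 CPM against 25.2 and 19.7 CPM (0.94 ± 0.24, log2; unadjusted p = 0.00469). Ndufa6 had 287.6 and 292.6 CPM against 184.3 and 135.1 CPM, and Ndufa7 had 80.8 and 96.2 CPM against 52.5 and 54.4 CPM. In complex II, the succinate dehydrogenase, Sdhb had 697.1 and 727.8 CPM with doxycycline against 525.3 and 376.2 CPM without it (0.66 ± 0.34, log2, and 0.44 without untreated replicate 2). Its flavoprotein gene Sdha overlapped, at 1025 and 992.6 CPM against 1019.8 and 802.6 CPM, and turned to -0.02 (log2) without untreated replicate 2.

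In complex III, all 9 genes were above 0 with a median of 0.84; Uqcrq had 608.9 and 581.2 CPM with doxycycline and 328 and 217.3 CPM without it (1.13 ± 0.37, log2). In complex IV, the cytochrome c oxidase that passes electrons to oxygen, all 12 were above 0 with a median of 0.76. Cox5b had 34.2 and 36.3 CPM against 19.5 and 12.7 CPM (1.13 ± 0.32, log2; unadjusted p = 0.00837). Cox8b, the isoform of subunit 8 typical of muscle and heart, had 615.5 and 691.8 CPM against 386.1 and 265 CPM (1.01 ± 0.36, log2). Cox4i1 had 1501.8 and 1573.6 CPM against 1041.1 and 700.8 CPM. Of the ATP synthase, 13 of 15 genes were tested, and all were above 0 without overlap, where the background was 22.7%. The ATP synthase median was 0.76, or 0.50 without untreated replicate 2. Atp5e, its epsilon subunit, had 910.3 and 954.4 CPM with doxycycline against 441.7 and 372 CPM without it (1.20 ± 0.33, log2; unadjusted p = 0.00647).

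Mitochondrial ribosome proteins, the machine that reads the mitochondrial messages, were higher by a smaller amount. Of 47 genes, 44 were above 0, 37 of them without overlap, where the background was 22.7%. Their median was 0.39, or 0.26 without untreated replicate 2. Mrpl34, of the large subunit, had 34.8 and 37.9 CPM with doxycycline against 18.9 and 15.4 CPM without it (1.09 ± 0.22, log2; unadjusted p = 0.00126), and DESeq2 called it at an adjusted p of 0.0437. Mrps34, of the small subunit, had 42.7 and 50.4 CPM against 28.7 and 23.1 CPM (0.85 ± 0.23). Mrps12, the homologue of the bacterial protein at the decoding site, had 37.1 and 41.6 CPM against 23.3 and 17.5 CPM (0.95 ± 0.31).

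**Figure D3:**
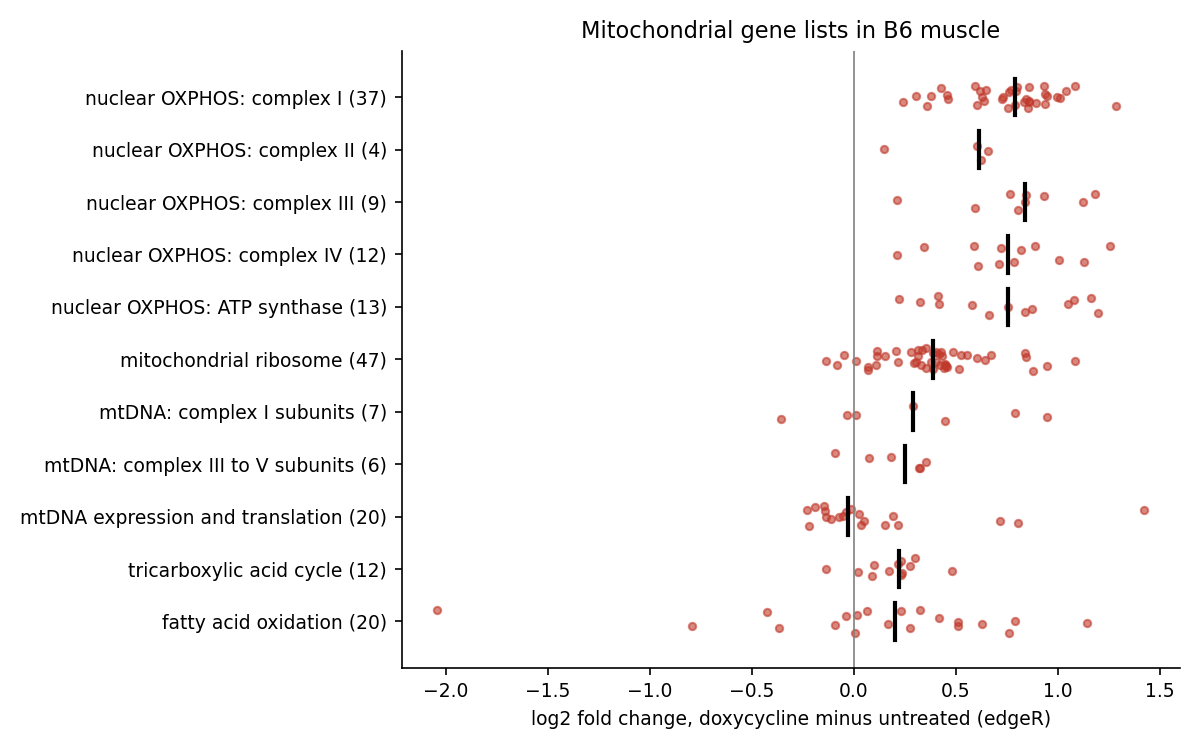
Log2 fold change, doxycycline minus untreated, of each tested member (points, spread vertically for legibility) of 11 mitochondrial gene lists in B6 muscle, with the median of each list as a bar and the number tested in brackets. All 75 nuclear respiratory chain and ATP synthase genes lay right of 0, while mitochondrially encoded subunits and the genes for mitochondrial DNA expression lay on both sides.

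Many of these genes are short, and fold changes in these libraries ran with gene length. Among protein-coding genes, the median log2 fold change was 0.50 for 294 genes with under 1000 bases of merged exons, 0.36 for 630 genes of 1000 to 1500 bases, -0.002 for 1883 genes of 4000 to 5000 bases, and -0.25 for 1352 genes over 10000 bases. Over 14093 protein-coding genes, which are not independent, Spearman's rho was -0.31. Relative to the mean of the 10 muscle libraries, genes of up to 1500 bases lay above those over 7000 bases by 0.36 and 0.44 (log2) in treated B6 libraries, against -0.07 and -0.16 in untreated B6 libraries. In 4F muscle the same difference was -0.41, 0.26 and 0.25 in treated and 0.12, -0.29 and -0.57 in untreated libraries. Protein-coding genes with exon lengths in the middle range of the complex I list, from 1022 to 2634 bases, had a median of 0.20, against 0.79 for the list. Offsets fitted to the trend with exon length in each library lowered the median of the shortest class to 0.22. With them, 74 of the 75 nuclear respiratory chain genes stayed above 0 with a median of 0.57, and the mitochondrial ribosome had a median of 0.32. Arntl, at 7523 bases, had -1.04 under these offsets, and Clock, at 13727 bases, had -0.40. The part of RNA integrity in this trend was not tested.

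**Figure D4:**
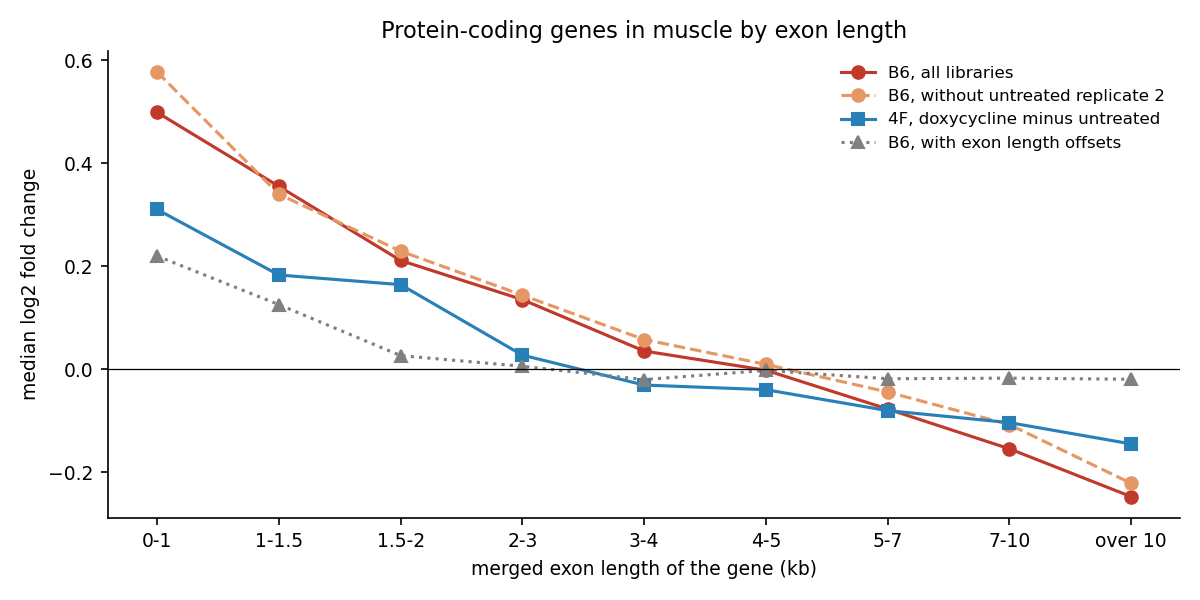
Median log2 fold change of protein-coding genes in 9 classes of merged exon length (kb) in muscle: B6 with all libraries, B6 without untreated replicate 2, 4F, and B6 with exon length offsets. The B6 medians ran from 0.50 in the shortest class to -0.25 in the longest, the 4F medians from 0.31 to -0.15, and the B6 medians with offsets from 0.22 to -0.02.

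Promoters of 60 of the 75 respiratory chain genes were matched in RefSeq. The palindromic motif of the nuclear respiratory factor NRF1, a regulator of such genes, was searched on both strands and was found in 15 of the 60 genes (25%), against 5.19% of 27025 genes with a window. Upstream bases of Ndufs6 at chr13:73328483-73328732 (minus strand) held a match beginning 16 bases before the start. Romo1, a small mitochondrial inner membrane protein among the genes with the smallest p-values, held a match at 212 bases before its start, in chr2:156143983-156144232 (plus strand). Both are printed with the match in capitals.
Ndufs6: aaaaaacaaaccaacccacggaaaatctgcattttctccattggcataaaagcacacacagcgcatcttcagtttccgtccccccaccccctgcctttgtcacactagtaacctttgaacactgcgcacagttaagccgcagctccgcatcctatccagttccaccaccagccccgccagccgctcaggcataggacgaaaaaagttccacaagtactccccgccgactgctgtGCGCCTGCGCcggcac
Romo1: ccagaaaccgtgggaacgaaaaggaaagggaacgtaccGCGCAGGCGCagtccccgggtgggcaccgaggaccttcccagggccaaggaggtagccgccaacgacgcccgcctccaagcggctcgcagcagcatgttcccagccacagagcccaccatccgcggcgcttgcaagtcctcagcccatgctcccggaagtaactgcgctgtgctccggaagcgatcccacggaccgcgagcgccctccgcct
The share with this motif describes the list, and was not tested.

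The same 75 genes were above 0 in 4F muscle too, with a median log2 fold change of 0.57, but the 4F arms overlapped. The median of the 75 genes, relative to the mean of the 10 muscle libraries, was -0.30, 0.53 and 0.37 (log2) in treated and 0.35, -0.51 and -1.19 in untreated 4F libraries. The B6 effect minus the 4F effect had a median of 0.17 over them, with 0 of 75 at an unadjusted p under 0.05. In the other B6 tissues the count above 0 was 75 of 75 in skin (median 0.94), 71 of 73 in liver (0.61), 32 of 75 in kidney (-0.05), 11 of 75 in lung (-0.16) and 2 of 74 in spleen (-0.56). In skin, genes with up to 1500 bases of exons had a median of -0.15 and those over 7000 bases -0.04; in liver these medians were 0.19 and -0.25.

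Messages encoded in mitochondrial DNA did not separate the arms in the same way. Their 13 protein-coding genes took 12.0% and 11.9% of all counts in treated libraries, and 11.9% and 9.41% in untreated libraries, the exact binomial (Clopper-Pearson) 95% interval being 12.02% to 12.05% in treated replicate 1 and 9.404% to 9.425% in untreated replicate 2, for counting error only. Only untreated replicate 2 was low, and the difference of the arm means, 1.28 percentage points, came to 0.03 without it. Of the 7 complex I subunits, 5 were above 0 with a median of 0.29, which was -0.02 without untreated replicate 2; of the 6 subunits of complexes III to V, 5 were above 0 with a median of 0.25, which was 0.00 without it. mt-Cytb, the cytochrome b of complex III, had 38947 and 38814.6 CPM with doxycycline against 35799 and 26338.9 CPM without it (0.32 ± 0.48, log2, and 0.12 without untreated replicate 2). mt-Nd1 had 31530.5 and 32037.1 CPM against 32222.1 and 19735.6 CPM, and mt-Co1, the catalytic subunit of complex IV, had 12493.5 and 12305.2 CPM against 12130.4 and 7727.6 CPM. Without untreated replicate 2 their log2 fold changes were -0.02 and 0.03. mt-Nd5, a proton-pumping subunit of complex I, went the other way at 7121 and 6427.2 CPM with doxycycline against 9603 and 7746.3 CPM without it (-0.36 ± 0.44, log2, and -0.19 without untreated replicate 1). mt-Nd6, the only subunit coded on the light strand, had 166.7 and 176.7 CPM against 73.2 and 104.7 CPM (0.95 ± 0.51, log2; unadjusted p = 0.103), and kept a value between 0.72 and 1.23 whichever B6 library was left out. mt-Nd2 and mt-Nd4 had overlapping arms and log2 fold changes of -0.03 and 0.01. The remaining 6 subunits, mt-Nd3, mt-Nd4l, mt-Co2, mt-Co3, mt-Atp6 and mt-Atp8, had between 0.155 and 18.7 CPM, far below the subunits above. They and the ribosomal RNAs mt-Rnr1 and mt-Rnr2, at 1.18 to 4.11 CPM, share sequence with nuclear copies, so their values are uncertain. Of these genes, mt-Co2, mt-Co3, mt-Atp6 and mt-Atp8 make up most of the complexes III to V list. The count above 0 and the median of that list therefore rest in good part on uncertain values. The 6 best counted genes held 99.8% to 99.9% of the mitochondrial counts.

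The enzymes around the respiratory chain showed smaller differences. Of 12 genes of the tricarboxylic acid cycle, 11 were above 0 with a median of 0.22, which was -0.01 without untreated replicate 2. Of 20 genes of fatty acid oxidation, 14 were above 0 with a median of 0.20. It was 0.05 without treated replicate 1 and 0.33 without untreated replicate 2. Among these genes Hadh, which oxidises hydroxyacyl-CoA, had 262.8 and 214.5 CPM with doxycycline against 166.7 and 114.9 CPM without it (0.76 ± 0.27, log2; unadjusted p = 0.023). Of 19 glycolysis and glycogen genes tested, 15 were above 0 with a median of 0.36, which was -0.05 without untreated replicate 2. The factors that copy and translate mitochondrial DNA were 9 of 20 above 0 with a median of -0.03; among them Slirp, which stabilises mitochondrial messages, had 72.7 and 70.1 CPM against 44.6 and 37.2 CPM (0.80 ± 0.30, log2; unadjusted p = 0.0282). Of the 10 genes of the mitochondrial unfolded protein response, 8 were above 0 with a median of 0.15, or 0.10 without untreated replicate 2. Its co-chaperonin Hspe1 had 5.68 and 5.55 CPM with doxycycline against 2.99 and 3.81 CPM without it (0.72 ± 0.26), and its protease gene Clpx had 67.6 and 54.2 CPM against 71 and 89.3 CPM (-0.40 ± 0.22, and -0.22 without untreated replicate 2). Of the 11 regulators of mitochondrial biogenesis, 5 were above 0 with a median of -0.01. Gabpa, a subunit of NRF2, had 30 and 22.6 CPM against 40.2 and 37.9 CPM (-0.57 ± 0.21, log2; unadjusted p = 0.0291). Esrra, an orphan receptor that drives respiratory genes, had 120.8 and 138.4 CPM against 92.7 and 41.6 CPM (0.95 ± 0.41; unadjusted p = 0.051). Leaving out untreated replicate 2 gave 0.48, and leaving out untreated replicate 1 gave 1.64. None of these lists had a gene that edgeR called.

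Fast myosins made up nearly all of the adult myosin heavy chain in the 4 libraries. Per kilobase of exon, Myh4, the myosin heavy chain of type IIB fibres, made up 84.3% and 86.7% of the 4 adult myosins in treated muscle and 91.8% and 80.1% in untreated muscle. Myh1 (type IIX) made up 14.0% and 12.5% against 7.62% and 18.3%, Myh2 (type IIA) 1.60% and 0.849% against 0.533% and 1.46%, and the slow Myh7 0.0431% and 0.00373% against 0.00347% and 0.110%. The treated libraries lay between the untreated ones for Myh4, Myh1 and Myh7, and Myh2 was highest in treated replicate 1, so the arms overlapped for all 4 shares. As a level, Myh4 had 22985.4 and 23853.7 CPM with doxycycline against 36376.6 and 28195.8 CPM without it, a fold change of -0.46 ± 0.36 on the log2 scale (unadjusted p = 0.24), which was -0.26 without untreated replicate 1. That is the only adult myosin whose arms did not overlap.

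The slow-fibre list could not be given a direction. Of 16 genes, 4 were above 0 with a median log2 fold change of -0.38, but without untreated replicate 2 the count was 15 of 16 and the median 1.03, and without untreated replicate 1 it was 3 of 16 and -1.08. Myl3, the ventricular and slow essential light chain, had 83.3 and 57.3 CPM in treated libraries against 12.2 and 27.3 CPM in untreated libraries. It was higher in both treated libraries whichever was left out, between 1.37 and 2.52, with 1.83 ± 0.54 (log2; unadjusted p = 0.00984, edgeR adjusted p = 0.762) over all. Myl6b, an essential light chain of slow and embryonic fibres, had 8.43 and 8.78 CPM against 6.58 and 5.95 CPM (0.46 ± 0.27). Myh7 had 16.8 and 1.47 CPM against 1.97 and 55.7 CPM, and Sln, the sarcolipin that restrains the calcium pump, had 9.02 and 12.9 CPM against 3.27 and 66.7 CPM; in both, untreated replicate 2 was the highest. The 16 fast-fibre genes were 8 above 0 with a median of 0.02, or -0.11 without untreated replicate 2. Mylk2, the skeletal light chain kinase, had 1344.4 and 1381 CPM against 1953.6 and 2243.3 CPM (-0.62 ± 0.40), and Actn3, the fast alpha-actinin, had 8012 and 8040.8 CPM against 10670.3 and 13039 CPM (-0.56 ± 0.47). The fast light chain Myl1 had 5983 and 5795.9 CPM against 5212 and 1632.5 CPM, where untreated replicate 2 alone was low. Tcap, which anchors titin and is a target of the muscle clock, had 3986.4 and 3918.9 CPM against 2641.6 and 2674.9 CPM (0.57 ± 0.27, log2; unadjusted p = 0.0647), and had 0.33 with exon length offsets, its exons spanning 948 bases.

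Genes of atrophy and of the glucocorticoid response had fold changes below 0 that turned on untreated replicate 2. All 22 atrophy genes were below 0 with a median of -0.84, but 6 had arms that did not overlap, near the background of 22.3%. Without untreated replicate 2 the count above 0 was 13 of 22 with a median of 0.05. Fbxo32 (atrogin-1) and Trim63 (MuRF1), the ubiquitin ligases of wasting muscle, and Pdk4 were chosen after their values were seen. Fbxo32 had 470.6 and 292.2 CPM with doxycycline, against 312.4 and 2598.4 CPM without it. Trim63 had 304.6 and 276 CPM against 247.4 and 1514.4 CPM. In both genes the treated libraries lay near untreated replicate 1. Mstn, the myostatin that limits muscle growth, differed from these, with 38.9 and 31.2 CPM with doxycycline against 61.4 and 66 CPM without it; its fold change was -0.86 ± 0.28 (log2; unadjusted p = 0.0145, edgeR adjusted p = 0.762) and -0.81 without untreated replicate 2. All 12 glucocorticoid targets were below 0 with a median of -1.12, which was 0.33 without untreated replicate 2, when 8 of 12 were above 0. Mt1, a metallothionein, had 17.5 and 20.7 CPM against 10.6 and 333.4 CPM, and Pdk4, which blocks pyruvate dehydrogenase in fasting, had 857.1 and 138 CPM against 227 and 3873.1 CPM. Ddit4 had 6.62 and 14.5 CPM against 12.5 and 127.9 CPM, and Fkbp5, a co-chaperone of the receptor, had 25 and 19.8 CPM against 34.8 and 196 CPM.

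**Figure D5:**
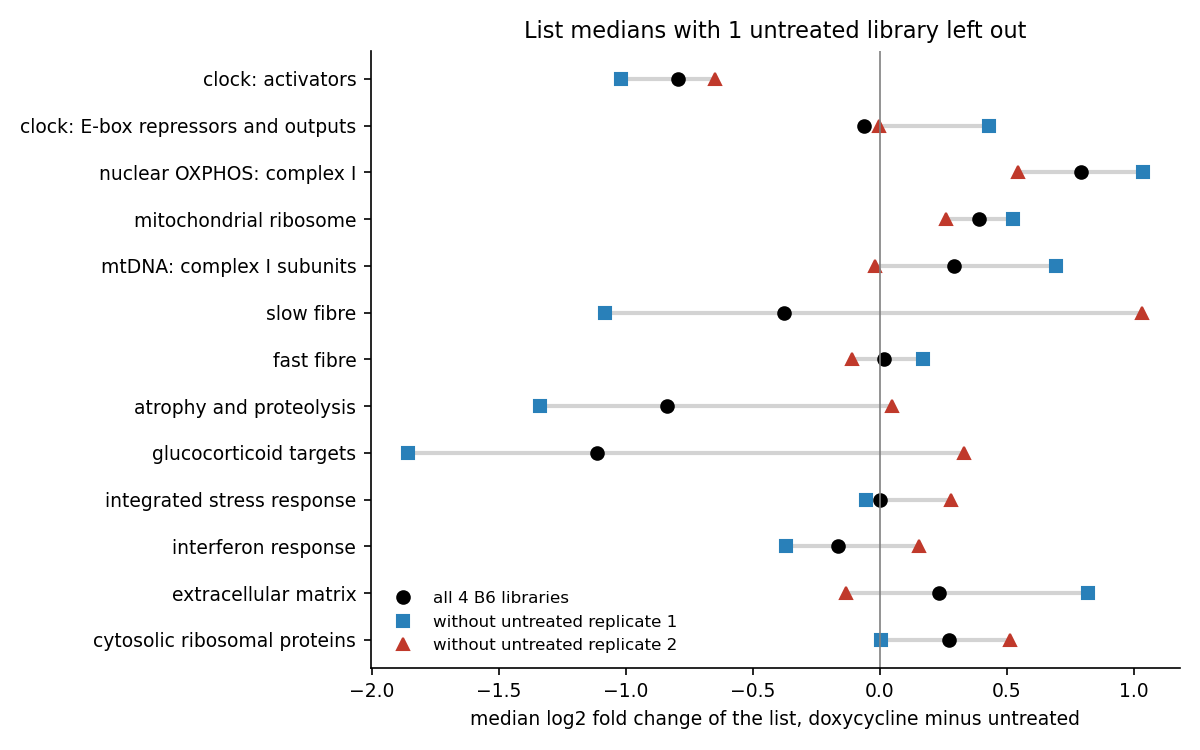
Median log2 fold change, doxycycline minus untreated, of 13 gene lists with all 4 B6 libraries (circles), without untreated replicate 1 (squares) and without untreated replicate 2 (triangles). Clock activators stayed between -1.02 and -0.65 and complex I between 0.54 and 1.04, whereas the medians of slow fibre, atrophy and glucocorticoid lists crossed 0.

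Further lists described calcium handling, growth, stress and inflammation. Trdn, the triadin of the calcium release complex, had 463.4 and 376.1 CPM with doxycycline against 695.8 and 811.2 CPM without it (-0.84 ± 0.28, log2; unadjusted p = 0.0156), and the 17 genes of its list had a median of -0.05, or -0.24 without untreated replicate 2. In the list of developmental and regeneration genes, 5 of 13 were above 0 with a median of -0.04, or 0.35 without untreated replicate 2. Mymk, needed for myoblast fusion, had 0.766 and 0.359 CPM against 0.0788 and 0.155 CPM, and Myl4, an embryonic light chain, had 22.5 and 31.7 CPM against 18.6 and 16.4 CPM. Of the 12 senescence genes, 7 were above 0 with a median of 0.24, or 0.10 without treated replicate 2; Cdkn2a, the cell cycle inhibitor of ageing cells, had 17 and 12 counts in treated libraries and 0 and 2 counts in untreated libraries, an unadjusted p of 0.017. Cxcl10, an interferon-induced chemokine among 17 tested NF-kB targets, had 4.49 and 6.14 CPM against 0.709 and 1.67 CPM (2.15 ± 0.75, log2; unadjusted p = 0.0213). The interferon response genes were 10 of 28 above 0 with a median of -0.17, which was 0.15 without untreated replicate 2, and Rsad2 had 7.03 and 7.02 CPM against 9.77 and 15.4 CPM (-0.84 ± 0.30, and -0.47 without that library). The integrated stress response, which defective mitochondrial translation can set off, was 10 of 20 above 0 with a median of -0.0008, or 0.28 without untreated replicate 2. Its mitochondrial branch factor Atf5 had 71.9 and 74.6 CPM with doxycycline and 42.5 and 61.8 CPM without it (0.49 ± 0.26, log2; unadjusted p = 0.0978, and 0.25 without untreated replicate 1), and Ddit3 had 20.8 and 31.7 CPM against 19.5 and 7.96 CPM (0.94, and 0.43 without untreated replicate 2). The 24 extracellular matrix genes had a median of 0.23 and 19 above 0, against -0.14 and 7 without untreated replicate 2. Medians between -0.10 and 0.19 were found for immediate early genes (8 of 25 above 0), p53 targets (6 of 15), proteasome (15 of 27), metalloproteinases and inhibitors (8 of 16), chaperones of the endoplasmic reticulum (9 of 16), heat shock (9 of 15), complement (12 of 18), denervation (11 of 17) and cholesterol and lipid synthesis (14 of 21). Leaving out 1 library moved several of these. The immediate early median was -0.89 without treated replicate 2 and 0.29 without treated replicate 1. Leaving out untreated replicate 1 gave -0.27 for complement and -0.15 for denervation, and leaving out untreated replicate 2 gave 0.56 and 0.27 for these lists. The others stayed between -0.18 and 0.29. Of the 10 clock-controlled muscle genes tested, 7 were above 0 with a median of 0.38, or 0.14 without treated replicate 2. Of 40 cytosolic ribosomal protein genes, 33 were tested and 24 were above 0 with a median of 0.27. Without untreated replicate 1, 18 were above 0 with a median of 0.01, and exon length offsets gave 0.11. Without untreated replicate 2, 28 were above 0 with a median of 0.51. The 7 not tested had at most 6 counts in any B6 library. Gapdh, which was not tested either, had 7 and 14 counts against 2 and 4 counts. These genes have many near-identical copies, and their values are uncertain.

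Across the whole table, the 8 smallest unadjusted p-values on the higher side, among named genes of at least 5 CPM, belonged to Mrpl34, Romo1, Smim4, Tmem256, Rps21, Sf3b5, Trir and Mrpl57. Romo1 had 64.2 and 71.8 CPM with doxycycline against 31.4 and 31.1 CPM without it (1.12 ± 0.24, log2; unadjusted p = 0.00156), and DESeq2 called it at an adjusted p of 0.0437. Rps21, a ribosomal protein of the small subunit, had 55.9 and 66.1 CPM against 18.2 and 31.5 CPM (1.29 ± 0.29). Mrpl57, Smim4, Tmem256, Sf3b5 and Trir had log2 fold changes between 0.63 and 1.16. With exon length offsets these lay between 0.38 (Trir) and 0.95 (Smim4), and the offsets gave 0.80 for Mrpl34, 0.86 for Romo1 and 1.03 for Rps21. The smallest p of all among genes of at least 5 CPM belonged to Usp9x, an X-linked deubiquitinase with 15051 bases of exons, at 25 and 21 CPM with doxycycline against 39.7 and 44.6 CPM without it. Its fold change of -0.88 ± 0.16 (log2; unadjusted p = 0.000597) was -0.62 with exon length offsets, and DESeq2 called it at an adjusted p of 0.0176. Ddx3x, an X-linked RNA helicase, had 79.1 and 78.6 CPM against 131.2 and 156.5 CPM (-0.87 ± 0.19), with a DESeq2 adjusted p of 0.0384. Acsl3, which activates long-chain fatty acids, had 15.7 and 12.1 CPM against 25.3 and 33.5 CPM (-1.08 ± 0.23), and kept -1.09 with the offsets. The chromatin remodeller Chd6, the cohesin factor Pds5a and Ankib1 were also among the lowest p-values, between -0.99 and -0.70. With exon length offsets Chd6 had -0.70, Pds5a -0.41, Ankib1 -0.56 and Ddx3x -0.83.

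Among genes whose arms did not overlap, the largest positive fold changes belonged to Krt18, Mir6236, Lars2, Myl3, Rrad, Usmg5, Actc1 and G0s2. Krt18 had 12.7 and 17.1 CPM with doxycycline against 0.748 and 4.9 CPM without it. Its fold change was 2.39 ± 1.02 (log2), and 4.31 without untreated replicate 2. Lars2, the mitochondrial leucyl-tRNA synthetase, had 701.7 and 126 CPM against 103.4 and 106.6 CPM, and Mir6236 had 300.1 and 50.3 CPM against 36 and 36.6 CPM. In both, treated replicate 1 alone was high, and without it the fold changes were 0.27 and 0.48. Actc1, the cardiac actin that regenerating and young muscle also uses, had 49.2 and 52.1 CPM against 22.4 and 11.6 CPM (1.58 ± 0.76). On the negative side stood Slc4a1, Hp, Fkbp5, Alas2, Kcnf1, Sesn1, Pm20d2 and Hba-a1, among them Slc4a1, Alas2 and Hba-a1 of red cells, and all 8 were highest in untreated replicate 2. Slc4a1, the red cell anion exchanger, had 1 and 0 counts in treated libraries against 4 and 1027 counts in untreated libraries. Of the 14 genes that DESeq2 called, 6 were set by 1 library. Sftpc, a surfactant gene of lung, had 0 and 11.8 CPM with doxycycline against 0 and 0 CPM without it. Krt5, a keratin of skin, had 0 and 2.35 CPM against 0 and 0 CPM. S100a3, 2310046K23Rik and Clca3a2 were also found in treated replicate 2 alone, at 0.555, 0.196 and 0.196 CPM, and Slc4a1 is given above. The other 8 were Usp9x, Ddx3x, Clock, Arntl, Mrpl34, Romo1, Krt78 and Rps26-ps1; Krt78 had 1 count in each treated library.

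The B6 effect was last set against the effect in 4F muscle, from mice that carry the doxycycline-inducible cassette. Whether doxycycline had switched it on in these libraries was not tested. edgeR called 0 genes for the difference (0%), with 647 at an unadjusted p under 0.05, and DESeq2 called 34. The 5 smallest p-values in which the B6 effect was the higher belonged to Ptger4, Cracr2b, Hlx, Cep164 and Sf3b5. Ptger4, a prostaglandin E2 receptor, had a log2 fold change of 0.67 ± 0.37 in B6 and -1.73 ± 0.32 in 4F muscle. Those in which it was the lower belonged to Cadm3, Eln, Hp, Fbp2 and Net1. Eln, elastin, had -0.16 ± 0.21 in B6 and 1.09 ± 0.17 in 4F muscle, a difference of -1.25 ± 0.27 (edgeR adjusted p = 0.999). Of the cassette's own genes, Pou5f1 had 0 counts and Sox2 at most 5 counts in every B6 library. Klf4 had 8.53 and 21.9 CPM with doxycycline and 18 and 18.2 CPM without it, and Myc had 8.36 and 8.82 CPM against 4.8 and 24.8 CPM, where untreated replicate 2 was the highest. In 4F muscle 0 of these 2 tested genes were above 0, with a median of -0.47 (log2).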

How the data were processed

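Total RNA extracted with the Qiagen RNeasy kit was made into libraries with the Illumina TruSeq Stranded Total RNA kit, per the labels' protocols. The authors deposited raw counts per Ensembl gene for 52636 genes, and each library's own table equalled its column in the series table in all 60 cases. The build was GRCm38, per the submitters' processing notes; no source used here names the aligner, counter, annotation or strand setting. Symbols and merged exon lengths came from GENCODE vM21, which matched 52489 genes; the 147 unmatched held at most 0.012% of a muscle library's counts.

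The 10 muscle libraries were fitted together with edgeR 4.0.16 (R 4.3.3): filterByExpr (count minimum 10, total minimum 15), TMM, quasi-likelihood, 4 arms plus sex, 5 residual degrees of freedom, and Benjamini-Hochberg adjusted p under 0.05 over all genes tested. DESeq2 1.42.0 was an alternative. With 2 libraries against 2, no permutation test of 1 gene can reach a p under 0.05. Totals in B6 muscle ran from 26191386 to 30597197 counts; a count of 0 allows up to 3 counts, and this covers counting error only. Chi-square per degree of freedom was 20.2 between treated and 175 between untreated libraries, so these counts differed by more than counting error. Whether libraries of an arm share an animal cannot be told from this. The steps were run on simulated counts that had a smaller spread than the muscle libraries. That run does not show how the steps perform on these data.

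The members, 41 gene lists and 21 marker lists were chosen with earlier results of these data known. Named genes were to be the 10 highest and 10 lowest called with at least 5 CPM on average and no predicted, clone or pseudogene symbol (none was called), the 8 smallest p-values and the 8 largest fold changes without overlap in each direction, every clock, mitochondrial DNA and adult myosin gene, up to 4 smallest p-values of other lists, and the 5 smallest p-values each way for the difference from 4F. The exon length offsets were added after seeing the data. Values of 2 genes that this rule names are not reported here.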

Additional observations from a re-analysis of the deposited data

Results flagged for a closer look

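Among the genes named for the smallest p-values of the difference from 4F muscle, 4 had arms that did not overlap and ran in opposite directions. In these, the treated libraries lay all above or all below the untreated ones in B6 muscle, and the reverse in 4F muscle. The share of all tested genes with this pattern is not given here, so these 4 cannot be set against a background. The B6 effect minus the 4F effect was 2.40 ± 0.49 (log2) for Ptger4, 1.83 ± 0.41 for Hlx, 1.30 ± 0.27 for Cracr2b and -1.82 ± 0.32 for Cadm3. Cadm3, a cell adhesion molecule, had 7.07 and 6.6 CPM with doxycycline against 9.33 and 9.23 CPM without it in B6 muscle (-0.44 ± 0.25, log2), and 1.38 ± 0.20 in 4F muscle. The difference was tested for each by edgeR, with an adjusted p of 0.999 in all 4, and these genes were named because their unadjusted p-values for it were among the smallest.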

How the results depend on the processing

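edgeR called 0 genes for the doxycycline effect and for its difference from 4F muscle in every edgeR fit run, while DESeq2 called 14 and 34. Leaving out a B6 library moved the number of genes at an unadjusted p under 0.05 between 242 (without treated replicate 2) and 1702 (without untreated replicate 1), against 1015 with all; in such fits the lone library of an arm was assumed to vary like the other groups.

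When each B6 library was left out, the list median ranged from -1.02 to -0.65 for clock activators, -0.0036 to 0.43 for clock repressors and outputs, -0.019 to 0.69 for mitochondrially encoded complex I, 0.54 to 1.04 for nuclear complex I, 0.60 to 1.25 for complex III, 0.50 to 1.08 for ATP synthase, 0.26 to 0.52 for the mitochondrial ribosome, -1.08 to 1.03 for slow fibre genes, -1.34 to 0.047 for atrophy and -1.86 to 0.33 for glucocorticoid targets. The mitochondrially encoded share differed by 0.029 to 2.54 and the Myh4 share by -6.30 to 5.40 percentage points. Untreated replicate 2 gave 1 end of each of these ranges. With exon length offsets the median was 0.57 for nuclear complex I, 0.049 for mitochondrially encoded complex I and -0.053 for mitochondrially encoded complexes III to V.

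Fold changes that crossed 0, with untreated replicate 2 left out at 1 end of the range, were those of Rorb (-0.10 to 1.77), Cry2 (-0.39 to 0.11), Ciart (-0.67 to 0.48), Nr1d1 (-0.56 to 0.48), Hlf (-0.19 to 1.22), Bhlhe40 (-0.50 to 0.62), Bhlhe41 (-0.24 to 1.86), Nfil3 (-1.90 to 0.36), Sdha (-0.015 to 0.34), Sln (-2.60 to 1.75), Myh7 (-4.28 to 2.21), Mt1 (-4.12 to 0.85), Mt2 (-4.35 to 1.25), Smtnl1 (-1.14 to 0.39), Gbp2 (-1.23 to 0.11), Zbp1 (-1.63 to 0.70), Trim63 (-2.38 to 0.23), Fbxo32 (-2.76 to 0.29), Pdk4 (-3.88 to 1.13), mt-Nd1 (-0.019 to 0.69), mt-Nd2 (-0.19 to 0.14), mt-Nd4 (-0.18 to 0.24), mt-Co3 (-0.29 to 0.14), mt-Atp6 (-0.18 to 0.38), mt-Atp8 (-0.030 to 0.42), mt-Rnr1 (-0.050 to 1.10), mt-Rnr2 (-0.98 to 0.25), Myh1 (-0.82 to 0.27) and Myh2 (-0.62 to 0.66). Per1 (-0.80 to 0.14) crossed 0 without treated replicate 1 and without untreated replicate 2 (0.11), and Nr1d2 (-0.25 to 0.047) without treated replicate 2. mt-Nd4 was -0.0025 with the B6 libraries fitted alone and -0.21 with exon length offsets, under which mt-Atp6 was -0.19 and mt-Atp8 was -0.21. The causes were not tested. Over the genes named and the lists, 39 gene values of all alternatives crossed 0 and 1667 kept their direction and side of the threshold. By contrast, 87 list medians moved by more than the spread between replicates of an arm and 657 did not. These 657 include medians that crossed 0 within that spread. The median of clock repressors and outputs, for example, was -0.06 with all libraries and 0.05 without treated replicate 1.

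No paired analysis was possible because the labels give no number shared between the arms. A count of 0 at this depth allows up to 3 counts, and the 2 libraries an arm limit every comparison.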
